A study of Homo sapiens with 2 samples.

Results

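The 10 genes described here code for CTCF and for the proteins that build, load and release cohesin, and they were chosen by name out of the 57736 genes listed in each table. SMC1A, SMC3 and RAD21 code for the cohesin ring, STAG1 and STAG2 for its accessory subunit, NIPBL for the loader, WAPL, PDS5A and PDS5B for release factors, and CTCF for the boundary factor. Each was matched by its symbol to 1 Ensembl gene. RNA-Seq libraries were made from poly(A)+ RNA of HEK293T cells, an established line from human embryonic kidney with the large T antigen of SV40, labelled as wild type and as kidney. According to the labels, the cells were heated to 43 °C for 20 min and then returned to 37 °C for 6 h, and both libraries, replicate 1 and replicate 2, came from cells lysed separately after this treatment. The main text of the study gives a longer heating time, and the times of the labels were used. Untreated cells were not analysed here, so the values give the state of heated cells and the spread between 2 libraries, not a response to heat. Replicate 1 held 22529828 expected counts and replicate 2 held 26890199. Of 7 marker genes of the line, 6 were matched and all 6 were detected, from PAX2 at 7.35 ± 0.69 TPM to VIM at 647 ± 51.6 TPM (SD, n = 2). Of 7 markers of other cells, only COL1A1 was detected (22.5 ± 2.22 TPM), and the rest lay between 0 and 0.32 TPM. These include the markers of mature kidney: UMOD and AQP2 were listed at 0 in both libraries, and NPHS1 had a TPM of 0.13 and 0.18. In replicate 1 the deposited upper credibility bounds of ALB (2.57), PTPRC (1.90), UMOD (1.66) and HBB (1.16) were above 1 TPM. Those of NPHS1 (0.78) and AQP2 (0.27) were below it. The absence of the first named is therefore less certain than their TPM alone shows.

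Cohesin is a ring that holds DNA. SMC1A and SMC3 are long coiled-coil ATPases that meet at a hinge, and RAD21, the kleisin, closes the ring and is the subunit that separase cuts at anaphase. STAG1 and STAG2 are alternative subunits that bind RAD21, so that a complex holds either of them. NIPBL, together with MAU2, loads cohesin and stimulates its ATPase while the complex extrudes a chromatin loop. WAPL opens the ring with the help of PDS5A or PDS5B, and the PDS5 proteins also take part in protecting cohesin on replicated DNA. CTCF is a zinc finger protein that halts cohesin at its binding sites, where many loops end. In the study, public data on CTCF and RAD21 binding were examined around the genomic sites that touch the rRNA gene clusters. The study reported that the centres of these sites were depleted of both.

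The members differed in base composition, and SMC1A and CTCF, with the highest GC content, differed least between the libraries. From the GRCh37 genome, the first 50-base stretch (the read length) that lay inside a coding exon of the reference transcript and had the median G+C content of all such stretches of its gene was taken for 5 genes. They are SMC1A and CTCF, with the highest GC content of the members, and SMC3, STAG2 and NIPBL, which differed most between the libraries. G and C are in capitals, and each is written 5′ to 3′ on the strand of the gene.
SMC1A, chrX:53449464-53449513, minus strand, exon 1: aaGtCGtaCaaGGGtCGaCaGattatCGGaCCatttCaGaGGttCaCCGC
CTCF, chr16:67644782-67644831, plus strand, exon 3: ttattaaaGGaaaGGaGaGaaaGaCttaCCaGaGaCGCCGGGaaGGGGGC
SMC3, chr10:112328696-112328745, plus strand, exon 2: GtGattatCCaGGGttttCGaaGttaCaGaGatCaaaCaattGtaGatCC
STAG2, chrX:123159710-123159759, plus strand, exon 4: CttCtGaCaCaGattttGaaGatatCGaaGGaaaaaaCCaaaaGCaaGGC
NIPBL, chr5:36955589-36955638, plus strand, exon 3: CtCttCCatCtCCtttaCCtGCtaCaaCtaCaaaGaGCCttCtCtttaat
The SMC1A and CTCF stretches held 25 G or C bases of 50, those of SMC3 and STAG2 held 19 and that of NIPBL held 20. Over the whole coding sequence, GC content was 50.4% for SMC1A and 49.1% for CTCF, and it was 39.0% for SMC3, 39.6% for STAG2 and 39.8% for NIPBL. It was 39.4% for PDS5B, which differed less between the libraries than SMC3, STAG2 and NIPBL. PDS5A, WAPL and STAG1 had 41.1%, 41.3% and 41.7%. The coding sequence of RAD21 was not examined in this way.

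All 10 genes were expressed in both libraries. Detection was set at 1 TPM (a count divided by transcript length and scaled to the same total in each library) in both replicates, which 26.3% of all listed genes and 63.8% of the 19391 protein-coding genes passed. The mean TPM of the members had a median of 64.8, against 18.6 over the 12367 protein-coding genes detected, and 9 of 10 members lay above that median. The exception was STAG1. By mean TPM the order was SMC1A, SMC3, PDS5A, STAG2, RAD21, PDS5B, CTCF, NIPBL, WAPL and STAG1. Most neighbours in this order had overlapping ranges over the 2 libraries. Ranges were separate only between SMC1A and SMC3, between CTCF and NIPBL, and between WAPL and STAG1, which leaves SMC1A alone at the top, a middle group from SMC3 to CTCF, then NIPBL with WAPL, and STAG1 alone at the bottom. This order rests on the deposited lengths. When the counts were divided by the longest annotated transcript instead, SMC1A stayed first and STAG1 last in both libraries, but CTCF ranked 2 in replicate 1 and 3 in replicate 2, where by TPM it ranked 4 and 7, and WAPL ranked above PDS5B in both. The TPM summed over the 10 genes was 711 in replicate 1 and 1014 in replicate 2. In TPM each of the 10 was higher in replicate 2, and the share of all genes that were so was not computed. With the other scaling of the counts used below, the log2 ratios of SMC1A (-0.01) and CTCF (-0.09) were under 0. As these are bulk samples, fewer cells with a transcript and less of it per cell cannot be told apart.

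**Figure D1:**
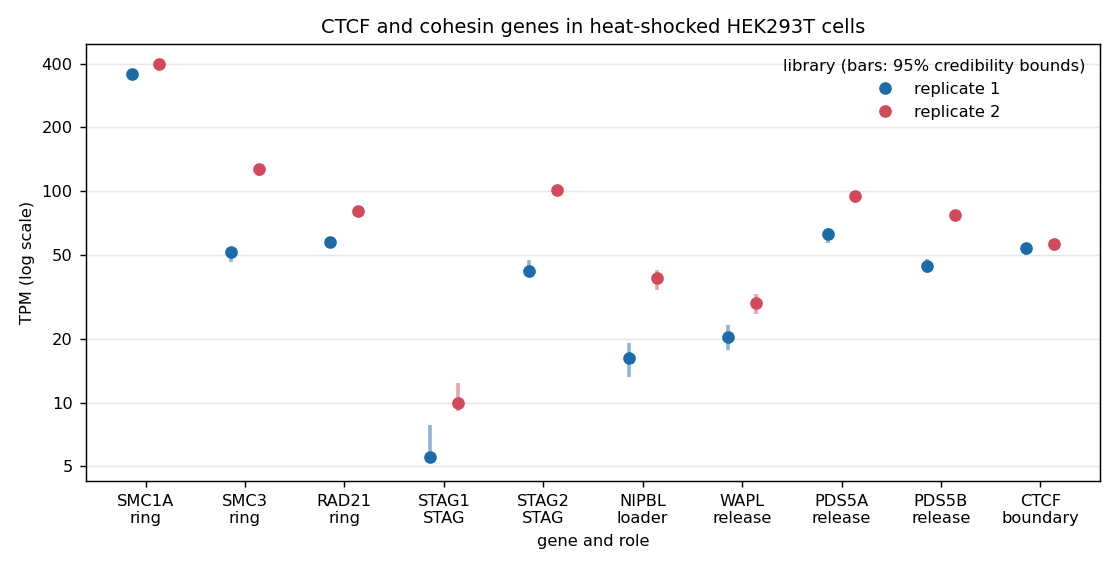
TPM of the 10 genes on a log axis, grouped by role, with a point for each library and bars for the deposited 95% credibility bounds. SMC1A lies at 357.9 and 398.51 TPM, above every other member, and STAG1 lies lowest at 5.54 and 9.91 TPM.

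The genes of the ring were not at equal levels. SMC1A (ENSG00000072501, chrX:53401070-53449677, minus strand) had 357.9 TPM in replicate 1 and 398.51 TPM in replicate 2, from 17962 and 22088 counts, with a mean of 378 ± 28.7 TPM (SD, n = 2). It stood at the percentile 98.0 of detected protein-coding genes. SMC3 (ENSG00000108055, chr10:112327442-112365806, plus strand) had 51.46 and 127.19 TPM from 2313 and 6808.65 counts, a mean of 89.3 ± 53.5 TPM. RAD21 (ENSG00000164754, chr8:117858173-117887015, minus strand) had 57.08 and 80.35 TPM from 3645.91 and 5672.77 counts, a mean of 68.7 ± 16.5 TPM. The proteins are present in the ring in equal number, whereas SMC1A exceeded SMC3 by 6.95 times in TPM in replicate 1 and by 3.13 times in replicate 2. RAD21 over SMC1A was 0.159 and 0.202. RAD21 was above SMC3 in replicate 1 (ratio 1.11) and below it in replicate 2 (0.632), so their order differed between the libraries.

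The size of the SMC1A excess depended on transcript length. The tables divide the SMC1A count by a length of 2799.8 bases in replicate 1 and 2718.2 bases in replicate 2, an average over 6 listed transcripts weighted by their estimated shares, of which the longest has 9930 bases and the shortest matched one 838 bases. When the counts were divided by the longest annotated transcript of each gene instead, SMC1A over SMC3 came to 4.32 in replicate 1 and 1.80 in replicate 2. RAD21 over SMC1A came to 0.369 and 0.467 on that scale. SMC1A thus remained the highest of the ring on both length scales and in both libraries, by a factor that ranged from 1.80 to 6.95 over SMC3. Its deposited TPM also lay above its own upper credibility bound, 357.67 in replicate 1 and 397.83 in replicate 2, and it was the only member for which this was so. No 50-base sequence of its transcripts was shared with another listed gene, and its exons overlapped those of RIBC1 on the opposite strand over 0.372% of their length. For SMC3, 335 of 5633 such sequences (5.95%) also occurred in the processed pseudogene SMC3P1, yet the posterior SD of its count, which measures uncertain assignment of reads, was only 1.42 and 2.94 reads.

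**Figure D2:**
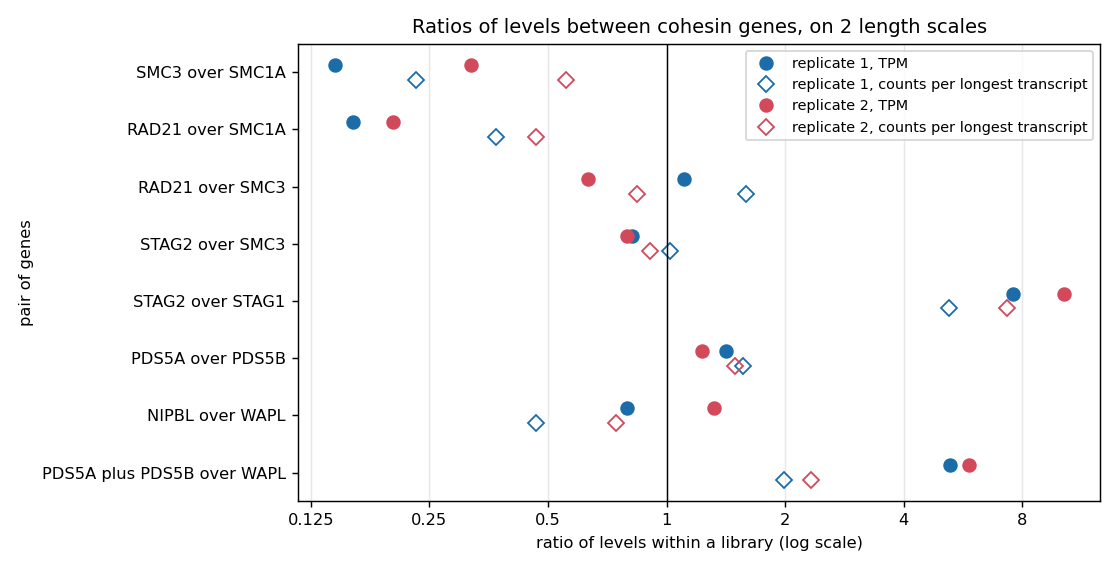
Ratios between pairs of genes within each library on a log axis, in TPM (circles) and as counts divided by the longest annotated transcript (diamonds). STAG2 lies above STAG1 and SMC1A above SMC3 and RAD21 in every case, while NIPBL over WAPL lies on both sides of 1.

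STAG2 was the predominant STAG paralog. STAG2 (ENSG00000101972, chrX:123094062-123556514, plus strand) had 41.95 TPM in replicate 1 and 101.06 TPM in replicate 2, a mean of 71.5 ± 41.8 TPM (SD, n = 2). STAG1 (ENSG00000118007, chr3:136055078-136471245, minus strand) had 5.54 and 9.91 TPM, a mean of 7.73 ± 3.09 TPM. STAG2 over STAG1 was 7.57 and 10.2, a mean log2 ratio of 3.14 ± 0.30, and STAG2 made up 88.3% and 91.1% of the summed TPM of the pair. With the longest transcript as length the ratio was 5.22 and 7.33. The paralogs could be told apart by reads of this length, since their transcripts had no 50-base sequence in common and their longest identical run was 21 bases. Part of STAG1 was less certain for another reason. Its exons overlap those of PCCB, which codes for a subunit of propionyl-CoA carboxylase, on the opposite strand over 1661 of 7843 bases (21.2%), and 20.0% of its 50-base sequences also occurred in PCCB. PCCB had 116 and 101 TPM. The sources used here do not give whether strand was used in counting, and with reads counted without strand those from the overlap could not be told apart. The posterior SD of the STAG1 count was 6.20 reads of 495.65 and 6.44 reads of 925.67, and 1.25% was the largest such share of any member.

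The STAG paralogs together were at a lower level than the mean of SMC1A and SMC3, with a ratio of 0.232 in replicate 1 and 0.422 in replicate 2 in TPM. That gap came largely from SMC1A, because STAG2 over SMC3 was 0.815 and 0.795, and 1.02 and 0.908 with the longest transcript as length. STAG2 and SMC3 therefore kept nearly the same ratio in both libraries although each was more than 2-fold higher in replicate 2. The sum of STAG1 and STAG2 over RAD21 was 0.832 and 1.38, so the accessory subunits were below the kleisin in one library and above it in the other.

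In TPM, the loader and the release factor WAPL were the lowest members after STAG1. NIPBL (ENSG00000164190, chr5:36876871-37066515, plus strand) had 16.2 TPM in replicate 1 and 38.88 TPM in replicate 2, a mean of 27.5 ± 16.0 TPM (SD, n = 2). WAPL (ENSG00000062650, chr10:88195013-88281549, minus strand; WAPAL in older lists) had 20.43 and 29.43 TPM, a mean of 24.9 ± 6.36 TPM. NIPBL over WAPL was 0.793 in replicate 1 and 1.32 in replicate 2, a mean log2 ratio of 0.03 ± 0.52. Loader and release factor could thus not be ranked in TPM. With the longest transcript as length, NIPBL was the lower in both libraries, at 0.465 and 0.746 of WAPL. MAU2, the partner of NIPBL in the loader, was chosen after its values were seen and had 34.2 and 35.01 TPM.

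In TPM, the PDS5 genes were at higher levels than WAPL, with which their proteins act, but for PDS5B this depended on the length used. PDS5A (ENSG00000121892, chr4:39824483-39979576, minus strand) had 62.5 and 94.98 TPM, a mean of 78.7 ± 23.0 TPM (SD, n = 2). PDS5B (ENSG00000083642, chr13:33160589-33352157, plus strand) had 44.24 and 77.36 TPM, a mean of 60.8 ± 23.4 TPM. PDS5A was the higher of the pair in both libraries, by 1.41 and 1.23 times in TPM and by 1.56 and 1.49 times with the longest transcript as length. The difference of the means is smaller than the SD of each gene between the libraries, but both genes were higher in replicate 2. Within a library the direction was the same in both, with a mean log2 ratio of 0.40 ± 0.14 in TPM. Their sum over WAPL was 5.22 and 5.86 in TPM, and 1.99 and 2.32 with the longest transcript as length, because the deposited tables give the PDS5 genes a length of 2301.8 to 2660.7 bases, far under their longest transcripts of 7131 bases (PDS5A) and 7472 bases (PDS5B). On the latter scale PDS5A was 1.21 and 1.39 times as high as WAPL, and PDS5B was below WAPL in both libraries, at 0.775 and 0.931 of it, where in TPM it was 2.17 and 2.63 times as high.

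In TPM, CTCF was the member with the most similar level in the 2 libraries. CTCF (ENSG00000102974, chr16:67596370-67673080, plus strand) had 53.52 TPM in replicate 1 and 55.9 TPM in replicate 2, from 3708 and 4306 counts, a mean of 54.7 ± 1.68 TPM (SD, n = 2). It was the only member whose credibility bounds, which cover counting and read assignment within a library, overlapped between the libraries (49.8 to 54.5 and 52.0 to 56.8 TPM). CTCF over RAD21 was 0.938 in replicate 1 and 0.696 in replicate 2. With the longest transcript as length it was 1.46 and 1.09, so which of the 2 was higher depended on the length used. The protein-coding genes nearest to CTCF in log2(TPM + 1) over the 2 libraries were MEAF6, TPP1 and CC2D1A, at distances of 0.0047, 0.0115 and 0.0154, and those nearest to RAD21 were HTATSF1, GGCT and MIX23, at 0.0368, 0.0473 and 0.0571. With only 2 libraries, such likeness means no more than similar values in both. With 2 libraries an exact sign-flip test of a ratio cannot go below p = 0.5, so no ratio between members was tested.

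Next, the spread between the replicates was examined gene by gene. An exact two-sided binomial test compared the expected counts of the 2 libraries after TMM scaling (edgeR), with Benjamini-Hochberg adjustment over 19714 genes. It compares these libraries and not conditions, and covers counting error only. Of the 10 members, 9 passed an adjusted p of 0.05, where 42.5% of all genes tested did. That share depended on the counts, and with a minimum of 100 counts over both libraries it was 58.1%. Each member had at least 1422 such counts, so neither share is for genes of like counts. Of the 9 members that passed, 8 were higher in replicate 2 (20.5% of all genes were) and only CTCF was lower. Among the members the median log2 ratio (replicate 2 over replicate 1) was 0.59, against -0.0014 over all genes tested. A log2 ratio of at least 1 was found for 3 members, SMC3, STAG2 and NIPBL, and for 4.44% of all genes.

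SMC3 had the largest log2 ratio of replicate 2 over replicate 1, 1.25 (95% counting interval 1.19 to 1.32, adjusted p = 1.14e-318 in the exact binomial test). STAG2 followed at 1.09 (1.02 to 1.15, adjusted p = 3.53e-258) and NIPBL at 1.07 (0.99 to 1.16, adjusted p = 8.97e-148). PDS5B (0.66), STAG1 (0.60) and PDS5A (0.59) formed a middle group. WAPL (0.39) and RAD21 (0.33) had smaller ratios with intervals that stayed above 0. SMC1A did not pass the test (-0.01, interval -0.03 to 0.02, adjusted p = 0.838 in the exact binomial test), and its sign depended on the scaling: it was 0.04 with library totals, which passed the test at adjusted p = 0.00899. CTCF was -0.09 (-0.15 to -0.02, adjusted p = 0.0176), and it did not pass with library totals. The TPM of CTCF was 1.04 times as high in replicate 2, so its direction also differed between TPM and TMM-scaled counts. When an edgeR exact test allowed for a common spread estimated from the same 2 libraries, a coefficient of variation of 0.2005, 0 of 10 members passed. Under this test 154 of 19714 genes passed, and 3 members (SMC3, STAG2 and NIPBL) had an unadjusted p under 0.05. The differences under test entered the estimated spread, so this test cannot decide whether the members differ beyond it.

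**Figure D3:**
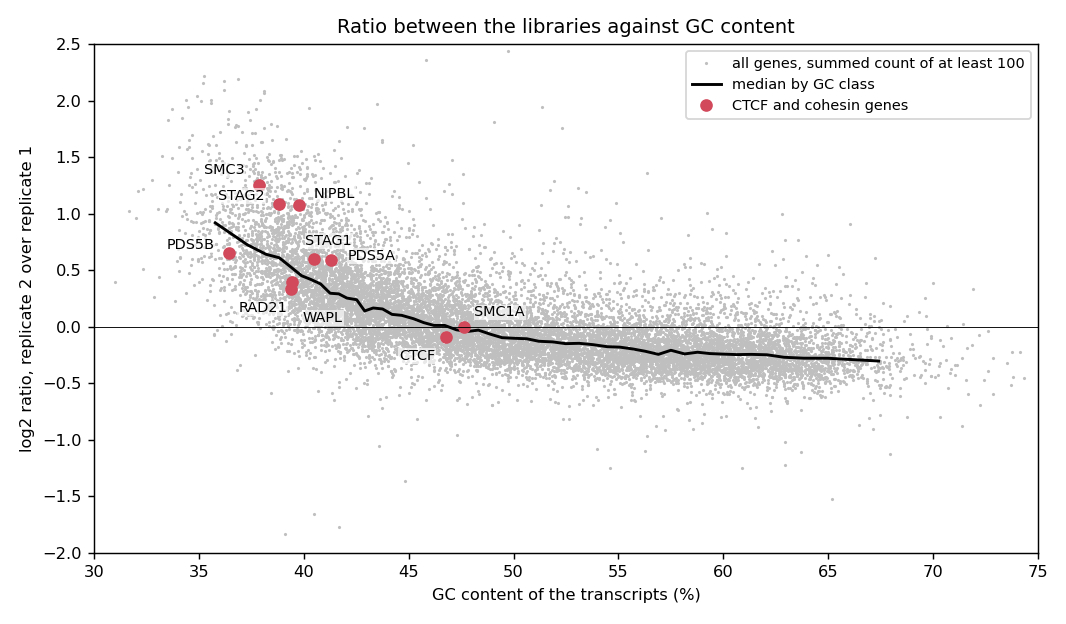
Log2 ratio of replicate 2 over replicate 1 (TMM-scaled counts) against GC content of the transcripts for 13512 genes that have a symbol and 100 or more counts over both libraries, with 8 genes outside the axes, and the median by GC class as a line. The 8 members with a GC content under 42% lie at ratios of 0.33 to 1.25, and SMC1A and CTCF, near 47%, lie near 0.

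The 8 members of lower GC content, the share of G and C bases in the reference transcripts, had higher ratios than the other 2. The median GC content of the members was 39.6%, against 49.2% over 13619 genes that had 100 or more counts over both libraries, and 8 of 10 members were under 42%. SMC1A (47.6%) and CTCF (46.8%) were the other 2, and they were also the 2 members with a ratio near 0. Among the 8 under 42% the ratio did not follow GC content. PDS5B had the lowest GC content (36.4%) and a ratio of 0.66. RAD21 and WAPL (39.4% each) were at 0.33 and 0.39, while NIPBL (39.8%) was at 1.07. Across all genes the ratio was higher in genes of low GC content, as the plot of ratio against GC content shows. At the GC content of SMC3 (37.9%), the median log2 ratio of all genes was 0.67, and at that of STAG2 (38.8%) it was 0.61.

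With this trend subtracted, 8 members still passed the test, where 26.3% of all genes did. Only 4 of them were higher in replicate 2, where 13.2% of all genes were. Both shares include genes with far fewer counts than the members. SMC3 kept a log2 ratio of 0.58 and NIPBL of 0.60, STAG2 of 0.48 and PDS5A of 0.29. RAD21 (-0.19), PDS5B (-0.18), WAPL (-0.13) and CTCF (-0.09) were lower in replicate 2 on this scale, so that the first 3 of these 4 changed direction. STAG1 (0.19, adjusted p = 0.0611) and SMC1A (0.03, adjusted p = 0.0954) did not pass the exact binomial test. The members' median fell to 0.11, against 0.02 over all genes. Among the genes within 1 percentage point of its GC content, 10.4% of 672 had a larger ratio than SMC3, 11.1% of 912 a larger ratio than STAG2 and 7.18% of 1101 a larger ratio than NIPBL. Ratios as large as those of SMC3, STAG2 and NIPBL were thus found in other genes of like composition in these libraries.

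**Figure D4:**
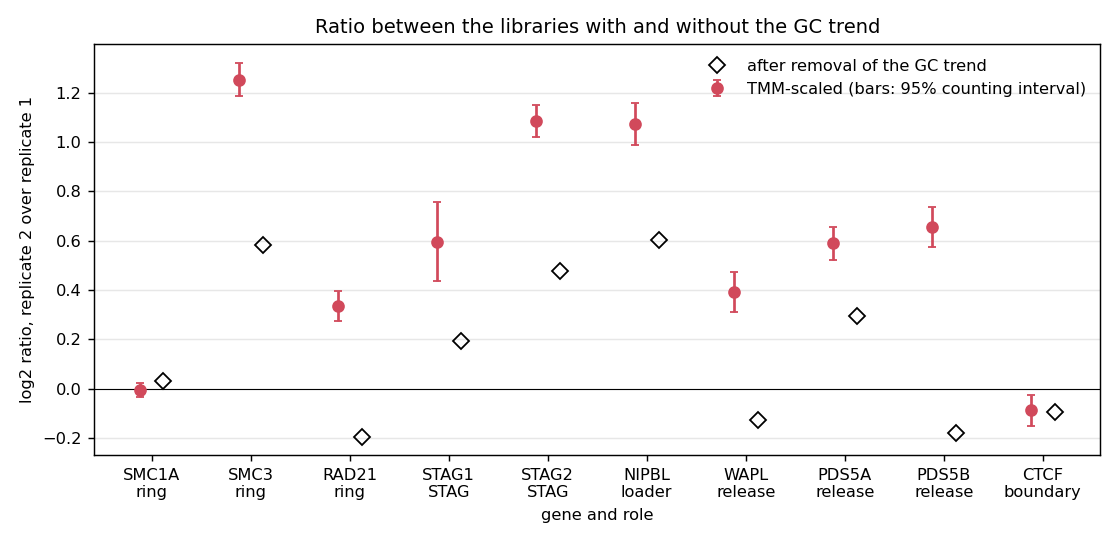
Log2 ratio of replicate 2 over replicate 1 for each of the 10 genes, TMM-scaled with 95% counting intervals (circles) and after subtraction of the GC trend (diamonds). SMC3, STAG2, NIPBL and PDS5A stay above 0 after subtraction, and RAD21, WAPL and PDS5B lie above 0 before it and below 0 after it.

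Genes of related complexes were then examined from lists of named genes. The 12 cohesin regulators include the loader subunit MAU2, enzymes that acetylate or deacetylate SMC3, proteins that protect cohesin or control its cleavage, and subunits of a clamp loader that acts in cohesion, and all 12 were detected, with a median of 34.1 TPM. They ranged from ESCO2, an acetyltransferase of SMC3, at 6.19 ± 2.71 TPM to PTTG1, the securin that holds separase inactive, at 380 ± 10.1 TPM (SD, n = 2). Between the libraries 5 of them were higher in replicate 2 and 5 were lower, and after subtraction of the GC trend 5 were higher and 1 was lower. Of all genes 42.5% passed in either direction before subtraction and 26.3% after it. Another pair of genes was chosen after their values were seen. ESCO1, the other acetyltransferase, had 7.38 and 21.91 TPM, and SGO2, a shugoshin that protects centromeric cohesin, had 3.14 and 10.15 TPM. Both have a GC content under that of STAG2 (37.8% and 37.3%). After subtraction of the GC trend, ESCO1 kept a log2 ratio of 0.77 and SGO2 of 0.87.

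The other SMC complexes are condensin, which compacts mitotic chromosomes, and SMC5/6, which acts in DNA repair. All 8 condensin genes were detected, with a median of 84.9 TPM. By the mean of the 2 libraries SMC4 was the highest, at 148 ± 97.0 TPM (SD, n = 2), although NCAPD3, named after its values were seen (153.54 and 140.89 TPM), was above it in replicate 1, where SMC4 had 79.89 TPM against 217.1 TPM in replicate 2. SMC2, the partner of SMC4 in condensin, was the lowest, with 15.69 and 44.53 TPM. Of the 8, 4 were higher and 4 were lower in replicate 2, and 3 and 2 after subtraction of the GC trend, beside the same 42.5% and 26.3% of all genes in either direction. All 6 genes of the SMC5/6 complex were detected, from NSMCE3 at 14.8 ± 0.021 TPM to NSMCE1 at 73.1 ± 15.1 TPM, with 2 higher and 1 lower in replicate 2 (42.5% of all genes passed), and 2 higher and 3 lower after subtraction of the GC trend (26.3%). The 2 that were higher in both cases are SMC5 (9.45 and 35.9 TPM) and SMC6 (22.33 and 52.15 TPM). The detected SMC genes other than SMC1A are SMC2, SMC3, SMC4, SMC5 and SMC6, a set put together after the values were seen. All had log2 ratios above 1, where 4.44% of all genes had at least 1 with an adjusted p under 0.05. Their GC contents were 36.0% to 38.6%. After subtraction of the GC trend their log2 ratios were 0.80 (SMC2), 0.58 (SMC3), 0.75 (SMC4), 0.64 (SMC5) and 0.48 (SMC6). In both condensin and cohesin the paired SMC genes had unequal TPM, but the lengths and GC contents of the genes differ as well.

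The germline forms of these genes were below every member other than STAG1. Of 4 genes of meiotic cohesin, 2 were detected: STAG3 had 7.69 and 10.77 TPM and REC8 had 2.27 and 1.55 TPM. SMC1B (0.10 and 0.24 TPM) and RAD21L1 (0.17 and 0.04 TPM) were not. None of the 3 with enough counts to be tested passed the exact binomial test between the libraries, where 42.5% of all genes did. Of these, SMC1B had only 7 and 20 counts and REC8 had 28 and 31. After subtraction of the GC trend STAG3 was higher in replicate 2 (log2 ratio 0.37, adjusted p = 0.0177 in the exact binomial test), where 26.3% of all genes passed. STAG3, with a mean of 9.23 ± 2.18 TPM, was nearer to STAG1 (5.54 and 9.91 TPM) than to STAG2, and above STAG1 in both libraries. Sequences that STAG3 shares with other genes were not examined. CTCFL, the germline paralog of CTCF, had 0.56 and 0.46 TPM and was not detected. It had 23 and 33 counts, where REC8 had 28 and 31. Its credibility bounds (0.65 to 1.31 and 0.66 to 1.21 TPM) lay above its deposited TPM and spanned 1 TPM. The calls of CTCFL and REC8 thus rest on few counts. Of 6 other genes for proteins that shape chromosome contacts, all 6 were detected with a median of 47.6 TPM, from PATZ1 at 27.5 ± 1.48 TPM to MAZ at 369 ± 32.0 TPM. Of these 6, 2 were higher and 3 were lower in replicate 2, and 1 and 1 after subtraction of the GC trend, beside 42.5% and 26.3% of all genes in either direction.

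**Figure D5:**
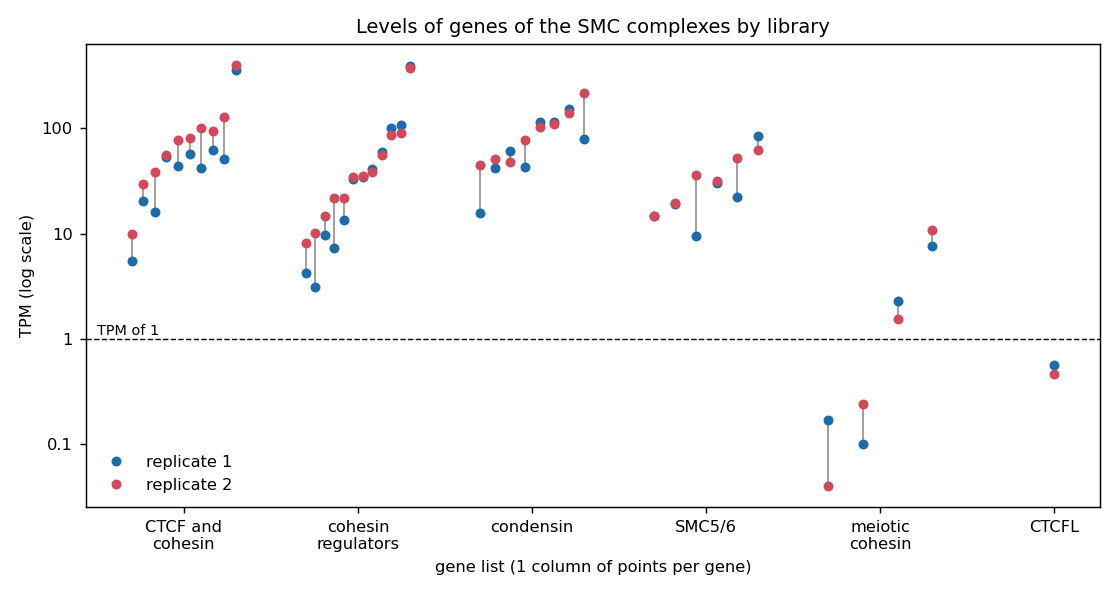
TPM on a log axis of the genes of 6 lists, with 1 column of points per gene, a point for each library and a grey line between them. Members of cohesin, condensin and SMC5/6 lie above the dashed line at 1 TPM in both libraries, and CTCFL, SMC1B and RAD21L1 lie below it.

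Promoters were searched for the heat shock element in its minimal paired form, GAANNTTC, which reads the same on both strands. Windows from 250 bases before to 50 bases after the start site came from RefSeq (GRCh38.p14), and 12 windows of 9 members, all but RAD21, were found. The motif was in none of the 9, and in 8.21% of 27305 genes with such windows. The absence says only that these letters are not in these windows.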

How the data were processed

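Poly(A)+ RNA of 2 heat-shock libraries was sequenced by the authors with 50 bp reads, and the groups came from the labels, which record the molecule as genomic DNA although their protocol describes poly(A)+ RNA. The submitters' processing notes name Trimmomatic 0.36, STAR 2.6.1c, RSEM 1.3.1 and hg19/GRCh37.p13. For the RNA-Seq data the methods of the study name featureCounts with an Ensembl gene list instead, but the tables carry the columns of RSEM. The expected counts deposited by the authors share multi-mapped reads among genes. The authors' TPM, as deposited, are divided by effective transcript length and scaled to the library. The FPKM deposited by the authors, used only as an alternative for detection, are scaled to length and reads. A further deposited table was read as the authors' pooled values.

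The members and gene lists were chosen with earlier results of these data known. Symbols, positions and GC content came from GENCODE 44 lifted to GRCh37 (97.1% of identifiers had a GC value), and 60 of 61 listed names were matched. NEFL was not. Of each list, the genes of highest and lowest mean TPM are named, with all germline genes and the 3 protein-coding genes nearest to CTCF and RAD21.

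Expected counts were rounded, and genes with 10 or more counts over both libraries were tested (edgeR 4.0.16 for TMM, SciPy 1.17.1 for the binomial test). Log2 ratios used a pseudocount of 0.5. The GC trend was the median in 50 classes of genes with 100 or more counts. Labels do not say whether the separately lysed cells were separate cultures, so differences between the libraries may be technical. The binomial p-values cover counting error only and measure no spread between replicates. A count of 0 allows up to 3 counts, a CPM of 0.133 in replicate 1 and 0.112 in replicate 2, for counting error only. Of 13619 genes with 100 or more counts and a GC value, 13520 had a symbol and entered the plot. Alternatives covered scaling (DESeq2 1.42.0 size factors), filters, thresholds, units, lengths and leaving out each library.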

Additional observations from a re-analysis of the deposited data

How the results depend on the processing

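Detection of all 10 members held at 0.1 TPM, at 1 FPKM and in each library alone, and 9 of 10 passed 10 TPM. At 10 TPM, 0 meiotic cohesin genes were detected, and at 0.1 TPM CTCFL (1 gene) and 2 markers of other cells were. Expected counts without division by length gave log2 ratios of -2.13 for RAD21 over SMC1A, 2.66 for STAG2 over STAG1 and 0.54 for PDS5A over PDS5B. The longest transcript as length gave -1.27, 2.63 and 0.61 for these, -0.76 for NIPBL over WAPL and -0.79 for the STAG paralogs over the mean of SMC1A and SMC3, a change that follows from the lengths used. The authors' pooled table, posterior mean TPM and a pseudocount of 1 TPM moved none of these 5 ratios, nor SMC3 over SMC1A, by more than 1 SD. The other ratios were recomputed in the same ways after seeing the data. CTCF over RAD21 (0.33) and PDS5B over WAPL (-0.23) turned with the longest transcript as length. STAG2 over SMC3 turned without division by length (0.11), and it also moved with posterior mean TPM (-0.24). By less than 1 SD, RAD21 over SMC3 (-0.26) changed sign with the longest transcript (0.21) and without division by length (0.20). The sum of STAG1 and STAG2 over RAD21 (0.10) did so with the longest transcript (-0.05).

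The number of members that differed between the libraries was 9 with library totals (40.9% of all genes passed), with DESeq2 size factors (41.9%), with no count minimum (25.2%) and with a minimum of 100 (58.1%). It was 8 after subtraction of the GC trend (26.3%) and 6 when an absolute log2 ratio of 0.5 was also required (13.4%). It was 0 with the edgeR exact test at a common dispersion (3 at an unadjusted p under 0.05, and 0.781% of all genes at an adjusted p), which adds an estimated spread between libraries. The sign of SMC1A turned with library totals (0.043), DESeq2 size factors (0.0046) and subtraction of the GC trend (0.032). Subtraction of the GC trend also turned RAD21 (-0.19), WAPL (-0.13) and PDS5B (-0.18). CTCF lost its call with library totals (-0.04, adjusted p = 0.370 in the exact binomial test). No paired analysis was possible because there is only 1 group here. With 2 libraries, leaving out either leaves a ratio between members with 1 value and no error.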
